A study of Mus musculus with 6 samples.

Results

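The potassium channel genes described here are all genes of the expression table whose symbol begins with *Kcn*, 72 of the 13886 genes tested. They include subunits that line the pore and auxiliary subunits that attach to them. Each gene entered by its name and not by a measured value, but the set was chosen with earlier results of these data known. RNA-seq was performed on ribosome-bound transcripts from the medial amygdala (MeA) of KissCre+/Rpl22HA+/+ female mice, in which Cre under control of the *Kiss1* locus switches on an HA tag on the ribosomal protein RPL22, so that antibodies to HA pull down the ribosomes of *Kiss1* cells. All females had their ovaries removed at 8 weeks of age, received estradiol (E2) for 4 days and then went 7 days without it. The OVX group (3 libraries) received no further E2, and the E2 group (3 libraries) received it for another 5 days. Each library was made from 1 pool of the MeA punches of 4 brains, so the spread between libraries is a spread between pools and not between animals.

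Potassium channels let potassium leave the cell down its gradient and so pull the membrane toward rest. Those opened by voltage (Kv channels) end the action potential and set the firing rate, two-pore leak channels hold the resting potential, inward rectifiers pass current near rest or on a signal from G-proteins, and calcium- or sodium-activated channels shape the pause after a spike. A pore is built from several alpha subunits, and auxiliary subunits change its gating or its transport to the membrane. Estradiol is known to act on the excitability of hypothalamic *Kiss1* neurons, in part through potassium currents.

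The libraries differed in what they held besides the neurons they are labelled for. All 6 neuronal markers were present, between 5532 and 6044 CPM (read counts scaled for library size) in sum, and none had an unadjusted p under 0.05. Of the *Kiss1* cell markers, *Cck* averaged 9.09 on the log2 CPM scale and *Cartpt* 6.44. All E2 libraries of *Cck* (9.16, 9.34 and 9.11) lay above its OVX libraries (8.95, 8.88 and 9.07). Its difference was 0.24 (limma, unadjusted p = 0.0047, adjusted p = 0.295). For *Cartpt* the difference was 0.14 (limma, adjusted p = 0.927). The estrogen receptor gene *Esr1* averaged 5.16 in OVX and 4.45 in E2 libraries, a difference of -0.70 (adjusted p = 0.0189). The *Kiss1* gene is listed as a pair of rows. In the row with more reads it averaged 1.75 in OVX and 3.66 in E2 libraries. The difference of 1.91 had an adjusted p of 0.00475 (limma). In the other row the difference was 5.05 with an adjusted p of 0.094 (limma), and OVX replicate 1 lay at -5.82. Markers of astrocytes (573 to 852 CPM in sum), oligodendrocytes (1563 to 2408 CPM), microglia and vessels were present in all libraries, and anterior pituitary markers reached 1029 CPM in OVX replicate 2 against 2.02 to 228 CPM in the other 5 libraries. The reads of a channel gene could therefore not be assigned to one cell type, and fewer cells of a type cannot be told apart from less RNA per cell.

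A total of 3 potassium channel genes passed an adjusted p of 0.05 (limma, Benjamini-Hochberg over all genes): *Kcnk1* and *Kcnf1* were higher in E2-treated females and *Kcng1* was lower. That is 4.17% of the members, beside 0.288% of all genes (40 of 13886, with 0.23% higher and 0.0576% lower). All 3 calls needed the mean-variance trend in some form. Without it limma called 0 members and 0 of all genes, and 7 members had an unadjusted p under 0.05. The adjusted p was then 0.175 for *Kcnk1*, 0.315 for *Kcnf1* and 0.551 for *Kcng1*. With the trend entered as rebuilt voom weights instead, the adjusted p from limma was 0.000995, 0.00118 and 0.0479. In the fit as reported, 11 members (15.3%) had an unadjusted p under 0.05, beside 8.56% of all genes. Of these 4 were higher (beside 4.21% of all genes) and 7 lower (beside 4.34%) in E2 libraries. The E2 and OVX values did not overlap for 13 members (18.1%), beside 13.7% of all genes. Of these 6 members were higher (beside 6.85% of all genes) and 7 lower (beside 6.82%). The differences of the members centred on 0, with a median of 0.01 on the log2 scale (0.00 for all genes) and 38 of 72 (52.8%) above 0, beside 51.1% of all genes. For 60 of 72 members the difference was under 0.25 in size, and for 67 the 95% confidence interval lay within 1 log2 unit of 0 on either side. The members with wider intervals were *Kcnmb2*, *Kcnj13*, *Kcne1l*, *Kcng4* and *Kcne2*, which were also the members with a range over 1 log2 unit across libraries.

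**Figure D1:**
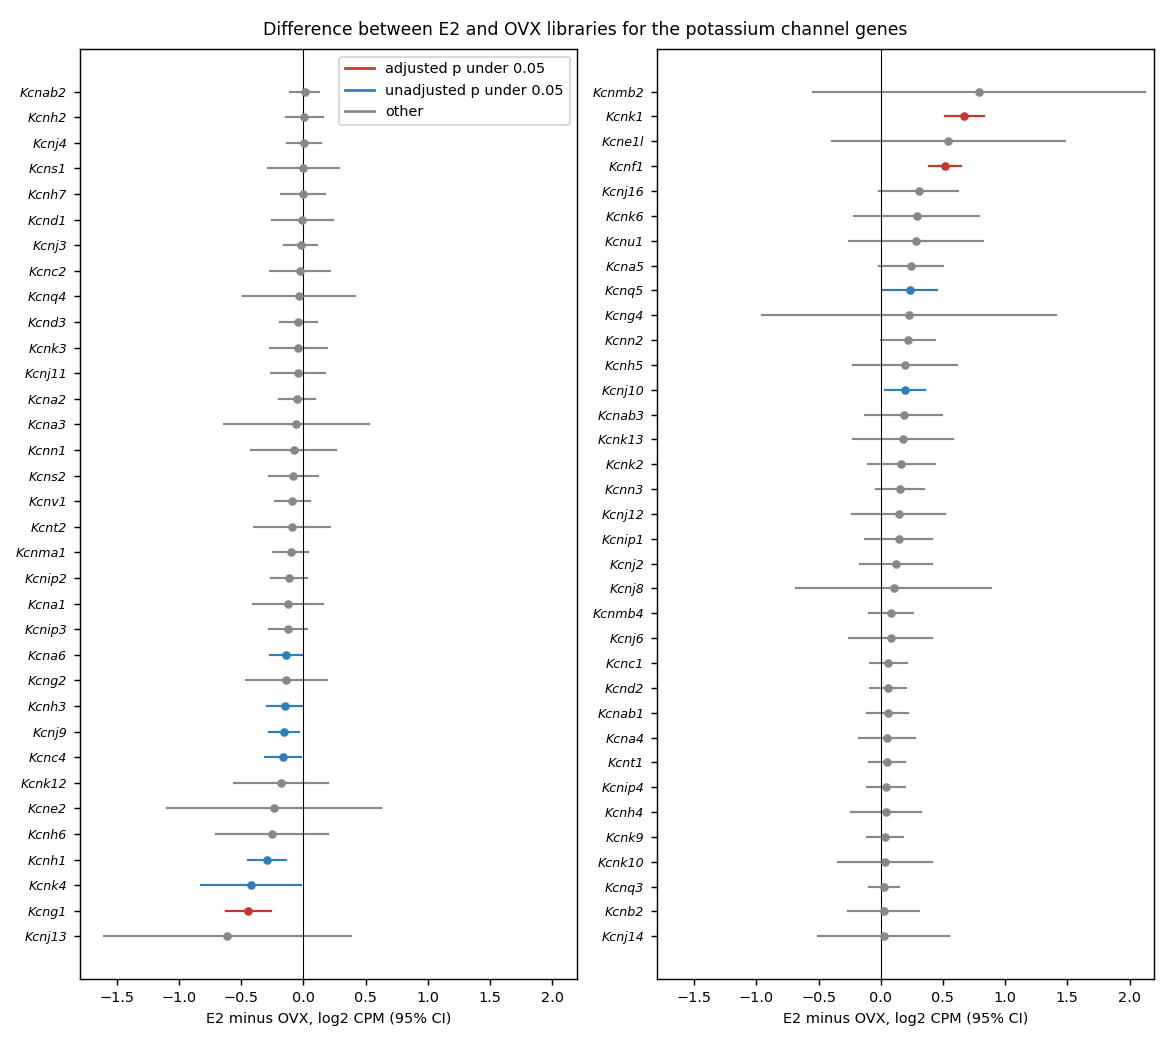
Difference between E2 and OVX libraries (log2 CPM, x axis) for 69 of the 72 potassium channel genes, with the 95% confidence interval from limma as a line. The 3 members in red have an adjusted p under 0.05, those in blue an unadjusted p under 0.05, and most others lie within 0.25 of 0.

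The stretches around the start sites of the 2 genes that were higher in E2-treated females are shown because the estrogen receptor, to which E2 binds, recognises paired copies of a short motif. The sequences are from RefSeq (GRCm38.p6), run from 250 bases before to 50 bases after the start, and read 5′ to 3′ on the gene's own strand. The window of *Kcnk1* is chr8:125994852-125995151 on the plus strand and that of *Kcnf1* is chr12:17176839-17177138 on the minus strand. Capitals mark the estrogen response element half-site, GGTCA or its reverse complement TGACC.
Kcnk1: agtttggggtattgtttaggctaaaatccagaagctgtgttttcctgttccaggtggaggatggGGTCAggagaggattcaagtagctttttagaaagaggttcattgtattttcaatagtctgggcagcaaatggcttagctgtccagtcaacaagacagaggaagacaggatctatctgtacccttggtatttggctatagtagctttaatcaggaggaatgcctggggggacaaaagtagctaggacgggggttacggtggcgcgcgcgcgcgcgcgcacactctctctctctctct
Kcnf1: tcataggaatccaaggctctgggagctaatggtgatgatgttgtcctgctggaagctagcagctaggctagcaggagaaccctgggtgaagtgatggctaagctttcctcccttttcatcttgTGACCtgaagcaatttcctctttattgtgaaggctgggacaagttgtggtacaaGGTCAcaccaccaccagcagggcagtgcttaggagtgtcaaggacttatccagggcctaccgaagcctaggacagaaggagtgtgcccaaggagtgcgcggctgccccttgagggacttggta
The *Kcnk1* window holds 1 half-site, which begins at position -186 from the start, and the *Kcnf1* window holds 2, which begin at -127 and -73. Such half-sites are common: 13299 of 32851 windows of this length (40.5%) hold at least 1. Windows were found for 50 of the 72 members, with more than 1 start for some, and 20 of their 73 windows (27.4%) hold a half-site. *Kcng1*, the called member that was lower, was among those without a window. The full element, GGTCA and TGACC separated by any 3 bases, of which the half-site is a part, was in 23 of all windows (0.07%) and in 0 windows of the members. A match in the letters is a description and does not show a binding site.

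Two-pore leak channels carried the largest of the 3 differences. *Kcnk1* (ENSMUSG00000033998; GRCm38 chr8:125995170-126030685, plus strand) encodes TWIK-1, a leak subunit that passes little current in many cells and that is also made by astrocytes. Its log2 CPM was 5.58, 5.54 and 5.41 in OVX replicates 1 to 3 and 6.16, 6.24 and 6.15 in E2 replicates 1 to 3. The lowest E2 library was above the highest OVX library, and the group means were 5.51 ± 0.09 and 6.18 ± 0.05 (SD, n = 3). The difference was 0.67 (SE 0.07, 95% CI 0.51 to 0.83; adjusted p = 0.000948), or 1.59-fold. It stayed between 0.62 and 0.71 when any single library was left out. Of the 2235 exonic bases of *Kcnk1*, 179 are shared with an antisense gene, *Gm45875*, and the libraries were not stranded, so reads there could not be assigned.

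The other 8 two-pore genes did not pass the adjusted threshold. Summed over them, the level per length was 40.8 to 41.9 CPM per kilobase in OVX libraries and 41.2 to 41.6 in E2 libraries, with the E2 libraries inside the OVX range. With *Kcnk1* included, the sums were 60.8 to 62.3 in OVX and 73.1 to 75.3 CPM per kilobase in E2 libraries. *Kcnk1* thus made up 31.2% to 34.4% of the two-pore level in OVX and 43.6% to 44.8% in E2 libraries. *Kcnk9* (TASK-3, an acid-sensitive leak channel) had the most reads of the family, and its log2 CPM was 7.34, 7.39 and 7.54 in OVX and 7.54, 7.46 and 7.38 in E2 libraries, a difference of 0.04 (95% CI -0.11 to 0.18). *Kcnk4* encodes TRAAK, a leak channel opened by stretch of the membrane. Its log2 CPM was 3.24, 3.21 and 2.996 in OVX and 2.40, 2.83 and 2.95 in E2 libraries. Its groups did not overlap, and the difference was -0.42 (SE 0.19, adjusted p = 0.562). It was -0.26 without E2 replicate 1, and 587 of the gene's 4465 exonic bases are shared with *Catsperz*. The differences of the stretch-activated *Kcnk2* (TREK-1), the acid-sensitive *Kcnk3* (TASK-1), *Kcnk10* (TREK-2), *Kcnk12*, *Kcnk13* and *Kcnk6* lay between -0.18 and 0.29, with adjusted p from 0.792 upward.

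**Figure D2:**
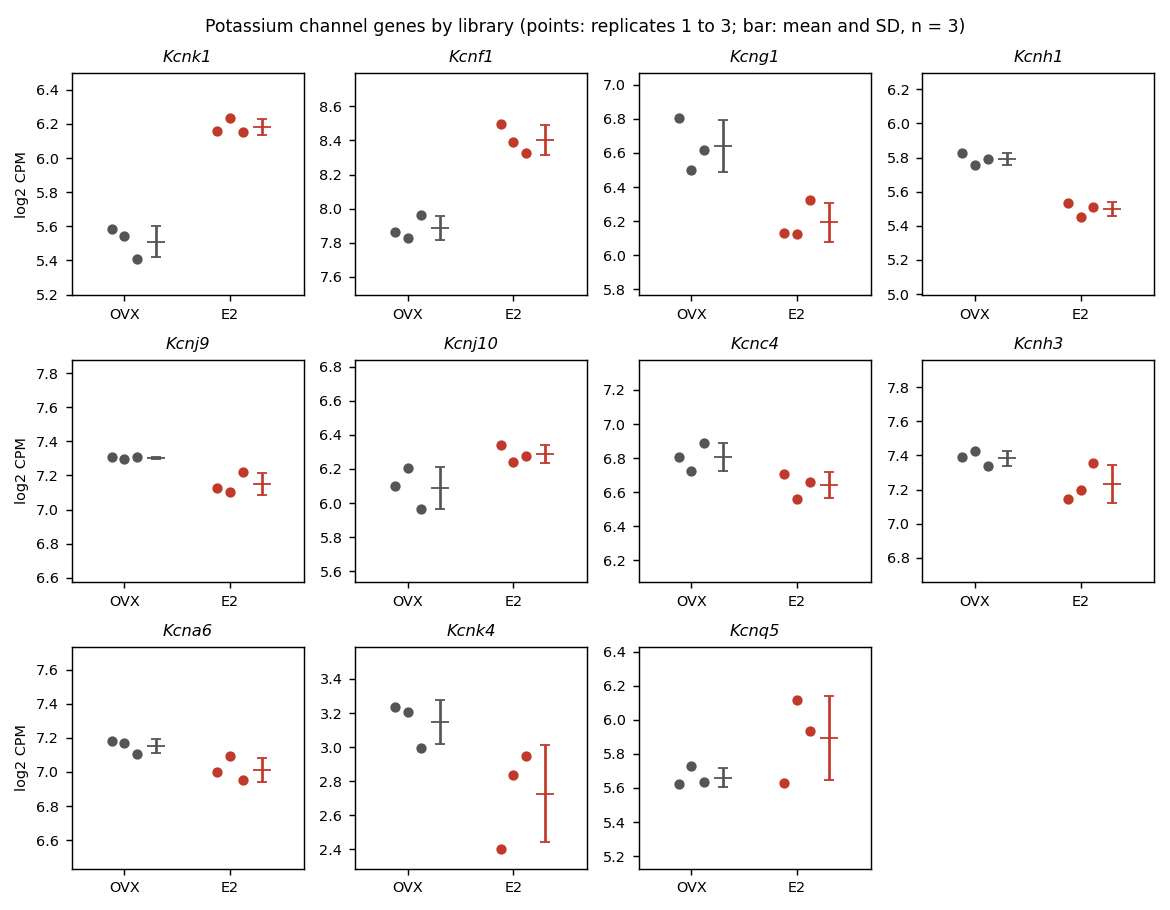
log2 CPM (y axis, each panel spanning the same 1.3 units) in the 3 OVX and 3 E2 libraries for the 11 members with an unadjusted p under 0.05, with the group mean and SD (n = 3) beside the points. *Kcnk1* and *Kcnf1* lie higher and *Kcng1* lower in all E2 libraries, while E2 points of *Kcnh3* and *Kcnq5* lie within the OVX range.

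The other 2 members that changed both belong to the silent Kv subunits, which form no channel alone and instead join Kv2 subunits and alter how those open and close. *Kcnf1* (ENSMUSG00000051726; GRCm38 chr12:17172100-17176888, minus strand) encodes Kv5.1. Its log2 CPM was 7.86, 7.83 and 7.96 in OVX and 8.49, 8.39 and 8.33 in E2 libraries, with no overlap and means of 7.89 ± 0.07 and 8.40 ± 0.09 (SD, n = 3). It rose by 0.52 (SE 0.06, 95% CI 0.39 to 0.65; adjusted p = 0.00133), or 1.43-fold, and the difference stayed between 0.47 and 0.56 when any single library was left out.

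*Kcng1* (ENSMUSG00000074575; GRCm38 chr2:168260117-168281736, minus strand) encodes Kv6.1 and moved the other way. Its log2 CPM was 6.80, 6.50 and 6.62 in OVX and 6.13, 6.12 and 6.33 in E2 libraries, with each E2 library below each OVX library. The means were 6.64 ± 0.15 and 6.19 ± 0.11 (SD, n = 3), and the difference was -0.45 (SE 0.08, 95% CI -0.63 to -0.26; adjusted p = 0.0469), or 0.734-fold. This call was close to the threshold. It was lost without OVX replicate 1 (adjusted p = 0.213), without OVX replicate 3 (0.105), without E2 replicate 1 (0.189) and without E2 replicate 2 (0.207). It was kept without OVX replicate 2 (0.0191) and without E2 replicate 3 (0.0263).

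Of the Kv2 pores, *Kcnb2* (Kv2.2) was at 3.75, 3.90 and 4.02 in OVX and 4.05, 3.97 and 3.72 log2 CPM in E2 libraries, a difference of 0.02 (95% CI -0.26 to 0.31). The log2 ratio of *Kcnf1* to *Kcng1* reads within a library was 1.06, 1.33 and 1.35 in OVX and 2.36, 2.26 and 1.9996 in E2 libraries, with no overlap. Per length of transcript, the ratio was 2.02 in OVX and 3.94 in E2 libraries. It was chosen after the values of the genes had been seen and carries no test.

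The remaining silent subunits were *Kcng2* (Kv6.2), *Kcng4* (Kv6.4), *Kcns1* (Kv9.1), *Kcns2* (Kv9.2) and *Kcnv1* (Kv8.1). None passed the threshold, and their differences ran from -0.14 for *Kcng2* to 0.23 for *Kcng4*. *Kcnv1* was at 6.22, 6.18 and 6.26 log2 CPM in OVX and 6.07, 6.15 and 6.18 in E2 libraries. Its groups did not overlap, and the difference was -0.09 (SE 0.07, adjusted p = 0.782). The 7 silent subunits summed to 104.5 to 113.6 CPM per kilobase in OVX and 121.6 to 125.5 in E2 libraries. Without *Kcnf1*, the other 6 summed to 56.9 to 63.3 in OVX and 50.2 to 54.6 CPM per kilobase in E2 libraries.

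Among the channels of the EAG, ERG and ELK branches, *Kcnh1* (EAG1, which opens slowly from negative potentials) had the smallest p after the 3 called members. Its log2 CPM was 5.83, 5.75 and 5.79 in OVX and 5.53, 5.45 and 5.51 in E2 libraries. The groups were well apart and the spread within each was small, but the difference of -0.29 (SE 0.07, 95% CI -0.44 to -0.14) did not pass the adjusted threshold (adjusted p = 0.148). *Kcnh3* (ELK2, a brake on excitability below spike threshold) was at 7.39, 7.43 and 7.34 in OVX and 7.15, 7.20 and 7.36 log2 CPM in E2 libraries. E2 replicate 3 lay within the OVX range, and the difference was -0.15 (SE 0.07, adjusted p = 0.535). *Kcnh2* (ERG1) differed by 0.01 (95% CI -0.14 to 0.15) and *Kcnh7* (ERG3) by -0.0049 (95% CI -0.18 to 0.17). For *Kcnh4*, *Kcnh5* and *Kcnh6* the differences were 0.04, 0.20 and -0.25, with adjusted p of 0.973, 0.856 and 0.805.

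The inward rectifiers were the largest group, with 12 members, and none passed the adjusted threshold. Of the G-protein-gated channels (GIRK), through which GABA-B, opioid and other receptors slow neurons, *Kcnj9* (GIRK3) was at 7.31, 7.30 and 7.31 log2 CPM in OVX and 7.12, 7.10 and 7.22 in E2 libraries. All E2 libraries were lower, and the difference was -0.16 (SE 0.06, adjusted p = 0.429). Its partners *Kcnj3* (GIRK1) and *Kcnj6* (GIRK2) differed by -0.02 (95% CI -0.16 to 0.11) and 0.08 (95% CI -0.25 to 0.41). The strong inward rectifiers that hold neurons at rest, *Kcnj2* (Kir2.1), *Kcnj12* (Kir2.2), *Kcnj4* (Kir2.3) and *Kcnj14* (Kir2.4), differed by 0.00 to 0.14. Of these *Kcnj4* had the narrowest interval (95% CI -0.13 to 0.14). The pores of the ATP-sensitive channel, which couples metabolism to firing, were *Kcnj11* (Kir6.2), with a difference of -0.04, and *Kcnj8* (Kir6.1, typical of vessel walls), with a difference of 0.11 at a mean of 0.68 log2 CPM.

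Rectifiers typical of glia and of the choroid plexus are given beside markers of those cells. *Kcnj10* (Kir4.1, by which astrocytes clear potassium) was at 6.10, 6.21 and 5.96 log2 CPM in OVX and 6.34, 6.24 and 6.28 in E2 libraries, a difference of 0.20 (SE 0.07, adjusted p = 0.451). *Kcnj16* (Kir5.1, its partner) was at 3.67, 3.89 and 3.70 in OVX and 4.22, 3.74 and 4.22 in E2 libraries, a difference of 0.31 (adjusted p = 0.602). The 7 astrocyte markers summed to 573 to 745 CPM in OVX and 660 to 852 in E2 libraries. Of these markers 6 had a positive difference and 1, *Gja1*, an unadjusted p under 0.05, and their part in the *Kcnj10* and *Kcnj16* values was not tested. *Kcnj13* (Kir7.1) and *Kcne2*, an auxiliary subunit, are both typical of the choroid plexus. *Kcnj13* was at 2.29, 3.13 and 2.42 log2 CPM in OVX and 3.08, 0.63 and 2.30 in E2 libraries, and *Kcne2* was at 1.02, 2.83 and 1.78 and at 2.16, 1.24 and 1.53. As for *Kcnj13*, the choroid plexus marker *Ttr* was highest in OVX replicate 2 and E2 replicate 1 (9.94 and 9.89) and lowest in E2 replicate 2 (8.49). The 4 choroid plexus markers summed to 680 to 1063 CPM in OVX and 391.5 to 1005 in E2 libraries, and none was at 0. All 4 had negative differences (median -0.50), and *Clic6* (-0.66) and *Kl* (-0.40) had an unadjusted p under 0.05. Their part in the *Kcnj13* and *Kcne2* values was not tested. The differences of -0.61 for *Kcnj13* (95% CI -1.60 to 0.38) and -0.23 for *Kcne2* (95% CI -1.09 to 0.63) were within the spread between libraries, and 623 of the 1270 exonic bases of *Kcnj13* are shared with *Gigyf2*.

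**Figure D3:**
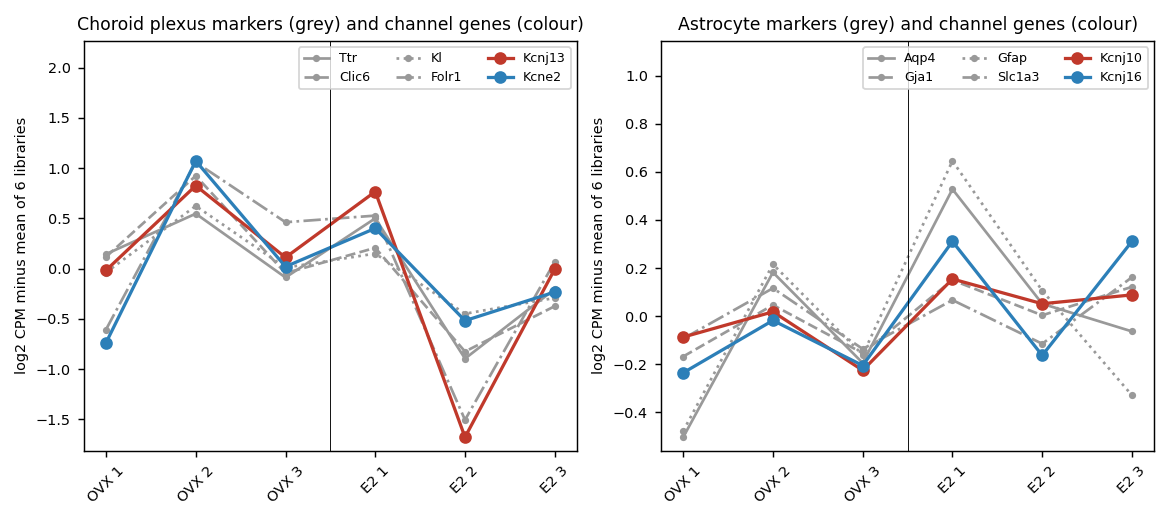
log2 CPM in each library minus the mean of the 6 libraries (y axis) for choroid plexus markers with *Kcnj13* and *Kcne2* (left) and astrocyte markers with *Kcnj10* and *Kcnj16* (right), with the channel genes in colour. *Kcnj13* and the markers on the left are lowest in E2 replicate 2, where *Kcnj13* is at 0.63 log2 CPM.

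The fast voltage-gated families showed no member past the adjusted threshold. Among the Kv1 channels of axons, *Kcna6* (Kv1.6) was at 7.18, 7.17 and 7.10 log2 CPM in OVX and 6.997, 7.09 and 6.95 in E2 libraries. The groups did not overlap, although E2 replicate 2 came close to the lowest OVX library, and the difference was -0.14 (SE 0.06, adjusted p = 0.546). Of the 5945 exonic bases of *Kcna6*, 2355 are shared with an antisense gene, *Gm26673*, and reads there could not be assigned. *Kcna1*, *Kcna2* and *Kcna4* (Kv1.1, Kv1.2 and Kv1.4) differed by -0.12, -0.05 and 0.05. The 3 Kv1 beta subunits, which ride on the inside of the pore, had positive differences from 0.01 (*Kcnab2*, 95% CI -0.11 to 0.12) to 0.18 (*Kcnab3*, 95% CI -0.12 to 0.49).

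Kv3 channels switch off fast enough to allow rapid firing. *Kcnc4* (Kv3.4) was at 6.81, 6.72 and 6.89 in OVX and 6.71, 6.56 and 6.66 log2 CPM in E2 libraries, and the E2 libraries were lower by a narrow margin (difference -0.16, SE 0.07, adjusted p = 0.499). *Kcnc1* (Kv3.1) and *Kcnc2* (Kv3.2) differed by 0.06 and -0.03. The A-type channels, which delay the first spike, were made up of the Kv4 pores *Kcnd1*, *Kcnd2* and *Kcnd3* (differences -0.01, 0.06 and -0.04) and the calcium-binding KChIP subunits *Kcnip1* to *Kcnip4* (differences 0.14, -0.12, -0.12 and 0.04). The intervals of *Kcnd2* (95% CI -0.09 to 0.20) and *Kcnd3* (95% CI -0.19 to 0.11) were narrow.

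Of the Kv7 subunits that carry the M-current, which muscarinic receptors shut off, *Kcnq3* differed by 0.03 (95% CI -0.10 to 0.15). *Kcnq5* was at 5.62, 5.73 and 5.64 log2 CPM in OVX and 5.63, 6.11 and 5.94 in E2 libraries. E2 replicate 1 lay within the OVX range while the other two E2 libraries were above it, and the difference was 0.23 (SE 0.10, adjusted p = 0.563). It was 0.36 without E2 replicate 1 and 0.12 without E2 replicate 2. Of the calcium-activated channels, *Kcnma1*, the large-conductance BK pore, differed by -0.10 (95% CI -0.24 to 0.03). Its neuronal subunit *Kcnmb4* differed by 0.08 at 4.96, 5.01 and 4.95 in OVX and 5.04, 5.03 and 5.10 log2 CPM in E2 libraries. These groups lay apart by little, and the adjusted p was 0.856. Of the 3324 exonic bases of *Kcnmb4*, 1048 are shared with antisense genes, and reads there could not be assigned. The small-conductance (SK) pores *Kcnn1*, *Kcnn2* and *Kcnn3*, which produce the slower pause after spikes, differed by -0.08, 0.22 and 0.16. The E2 libraries of *Kcnn2* (4.49, 4.61 and 4.68 log2 CPM) were above its OVX libraries (4.46, 4.32 and 4.34), with an adjusted p of 0.585. The sodium-activated *Kcnt1* and *Kcnt2* differed by 0.05 and -0.09.

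Levels were compared between genes as CPM per kilobase of the longest annotated transcript, averaged over the 6 libraries. The members ranged from 64.9 for *Kcnab2* (Kv beta 2) to 0.344 for *Kcnmb2* (BK beta 2), with a median of 6.19 beside 7.84 for all genes. Among the highest after *Kcnab2* were *Kcnf1* (60.1), *Kcnj4* (49.1), *Kcnip2* (46.0), *Kcnh3* (43.0) and *Kcnj9* (38.9). The first 10 members held 48.2% of the summed level. In OVX libraries *Kcnf1* was at rank 3, with 49.4 CPM per kilobase beside 64.7 for *Kcnab2*. In E2 libraries it was at rank 1, with 70.8 beside 65.1. *Kcnk1* stood 15th in OVX (20.4 CPM per kilobase) and 9th in E2 libraries (32.5), and *Kcng1* 11th (24.5) and 18th (17.95). With coding length in place of transcript length, an alternative chosen after seeing the data, *Kcnab2* and *Kcnf1* kept the first 2 places, while *Kcnj4* was 13th and *Kcnh3* 24th.

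**Figure D4:**
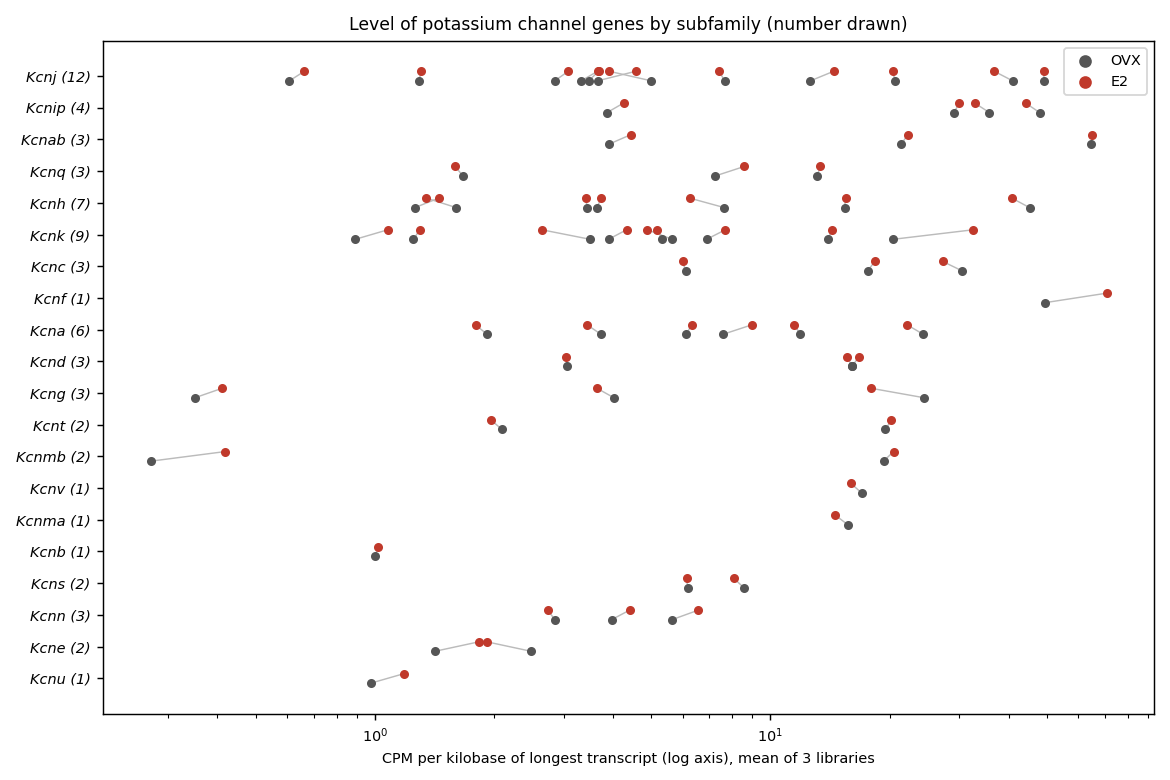
Level of 69 of the 72 genes (CPM per kilobase of the longest transcript, log axis, mean of 3 libraries) by subfamily, with OVX and E2 means joined by a line. *Kcnf1* lies at 49.4 in OVX and 70.8 in E2 libraries and *Kcnk1* at 20.4 and 32.5, and most other pairs lie close together.

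By subfamily, the inward rectifiers (*Kcnj*, 12 members) held 16.03% of the summed level per kilobase, the KChIPs (*Kcnip*) 12.2%, the Kv beta subunits (*Kcnab*) 9.70% and the Kv7 genes (*Kcnq*) 8.45%. *Kcnf1* alone held 6.42%, at 49.4 CPM per kilobase in OVX and 70.8 in E2 libraries, and the 6 Kv1 pores together held 5.86%. Among the highest members of the smaller families were *Kcnt1* (19.9 CPM per kilobase), *Kcnmb4* (19.9), *Kcnv1* (16.5), *Kcnd2* (16.4), *Kcnma1* (15.1), *Kcns2* (8.33), *Kcnn2* (6.11) and *Kcnu1* (1.08). *Kcnu1*, the pore of the sperm channel Slo3, was at 1.56 to 2.30 log2 CPM over the libraries. The summed reads of all 72 genes were 4530 to 4579 CPM in OVX and 4489 to 4692 CPM in E2 libraries, and the E2 libraries spanned the OVX range.

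Proteins outside the *Kcn* names that partner these channels were examined as a list of 24, of which 23 were in the table. None passed the adjusted threshold (limma), and 4 (17.4%) had an unadjusted p under 0.05, beside 8.56% of all genes. *Dpp6*, an auxiliary subunit of Kv4 channels, was at 8.78, 8.74 and 8.86 log2 CPM in OVX and 8.94, 9.05 and 8.88 in E2 libraries (difference 0.17). *Cntnap2* (Caspr2, which clusters Kv1 channels on axons) had a difference of 0.18 and *Lgi1*, a secreted ligand of the Kv1-associated ADAM22, one of -0.15. *Lrrc38*, an auxiliary subunit of BK channels, differed by 1.05 at a mean of 0.16 log2 CPM. Its OVX libraries (-0.04, -0.60 and -0.45) were all under 1 CPM and its E2 libraries (1.14, 0.36 and 0.55) above it. It thus passed the authors' filter, a mean CPM above 1 in at least 1 group, only through the E2 group. Its difference and its place among the 4 can therefore not be read as a result. The other partners lay between -0.18 (*Ank3*, which anchors Kv7 channels) and 0.29 (*Lrrc26*), among them *Amigo1* of the Kv2 channel (-0.13) and *Abcc8* of the ATP-sensitive channel (0.03).

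The 72 genes lie on 18 chromosomes (GENCODE release 21 of GRCm38), some of them side by side. Exonic bases were shared with another gene for 25 of them, and with a protein-coding gene for 5. *Kcnj9* and *Kcnj10* are 11.9 kilobases apart on chromosome 1 and had differences of opposite sign (-0.16 and 0.20). Their log2 ratio, *Kcnj10* to *Kcnj9*, was -1.21, -1.09 and -1.34 in OVX and -0.78, -0.86 and -0.94 in E2 libraries, with no overlap. This ratio too was chosen after the values had been seen. In the cluster on chromosome 6, *Kcna5*, *Kcna1* and *Kcna6* differed by 0.24, -0.12 and -0.14.

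Markers of other cells also differed between the groups. All 7 genes that mark excitatory neurons of the forebrain outside the amygdala had negative differences, with a median of -0.42. Of these 6 had an unadjusted p under 0.05 and 0 an adjusted p under 0.05. Their sum was 3863 to 4325 CPM in OVX and 3199 to 3904 CPM in E2 libraries, and none was at 0. With their mean level as a covariate in the fit, the difference of *Kcnk1* was 0.74 (adjusted p = 0.0509), that of *Kcnf1* 0.39 (adjusted p = 0.293) and that of *Kcng1* -0.24 (adjusted p = 0.998). For *Kcnh3* and *Kcnk4* the covariate left 14.6% and 16.4% of the difference, and for *Kcnh1* 94.2%. The covariate itself follows treatment (means of 6.50, 6.26 and 6.08 log2 CPM in OVX and 5.70, 5.82 and 6.10 in E2 libraries), so the 2 cannot be told apart fully with 6 libraries. All 3 markers of oligodendrocyte precursors had positive differences with an unadjusted p under 0.05 (98.4 to 119 CPM in sum in OVX and 118 to 153 in E2 libraries), and the erythroid genes *Hba-a1* and *Hba-a2* passed the adjusted threshold. The GABA neuron marker *Gad2* had a difference of 0.31 with an unadjusted p under 0.05. The part of these 3 cell types in the *Kcn* values was not tested. Without OVX replicate 2, the library with the most pituitary reads, the same 3 members passed the adjusted threshold.

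**Figure D5:**
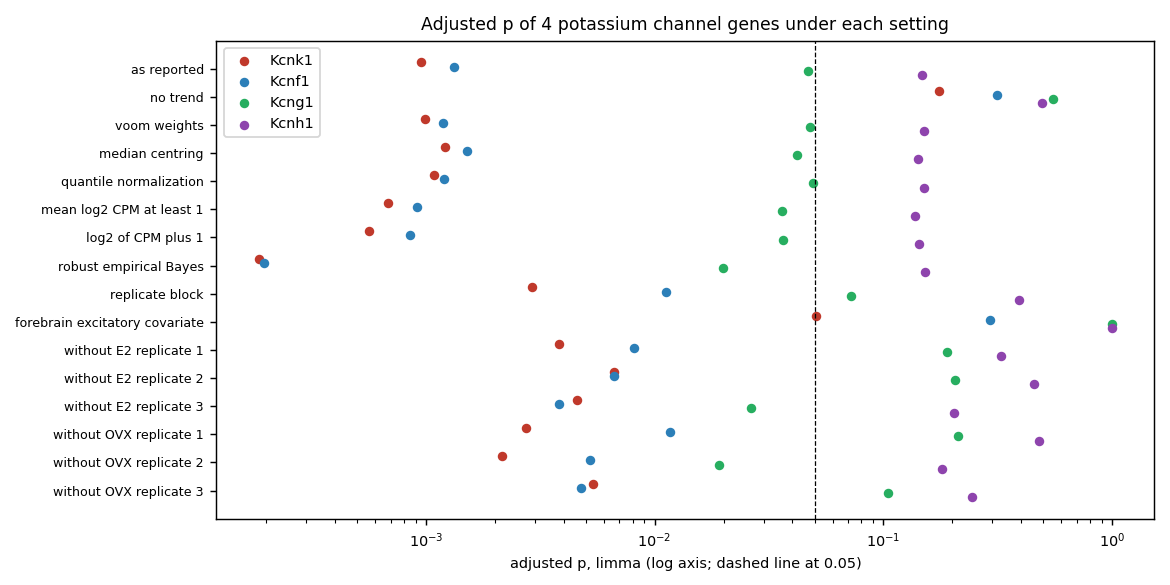
Adjusted p from limma (x axis, log scale) for *Kcnk1*, *Kcnf1*, *Kcng1* and *Kcnh1* in the fit as reported and under each of the 15 other settings, with 0.05 as a dashed line. *Kcnk1* and *Kcnf1* are left of the line except without the mean-variance trend and with the excitatory covariate, *Kcng1* crosses it in several settings, and *Kcnh1* stays to its right.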

How the data were processed

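Unstranded polyA libraries from the MeA immunoprecipitates were processed by the authors with FastQC 0.11.8, Trimmomatic 0.38, STAR 2.6.0a and RSEM on GRCm38 (Ensembl release 98). The authors limited the table to protein-coding genes with a mean CPM above 1 in at least 1 group and deposited log2 CPM values after TMM scaling and voom. A second deposited table holds the authors' own comparison (log2 fold changes, statistics, p-values and group means) and was not used. Scaled library sizes, rebuilt from the lowest value per library, were 28.1 to 34.2 M reads, and over all genes the SE of a difference had a median of 0.107 (log2).

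Here, limma 3.58.1 (R 4.3.3, lmFit and eBayes with a mean-variance trend) was fitted to all 13886 genes in 3 OVX and 3 E2 libraries, with treatment as the only term, two-sided p-values and Benjamini-Hochberg adjustment. The voom weights were not used in the reported fit; weights rebuilt from the values are an alternative. An exact permutation test of 3 against 3 libraries cannot give a p below 0.1 and was not run. The p-values measure the spread between these pools. The script was tested on simulated data. CPM per kilobase used GENCODE release 21 transcripts. Named genes were all members with an adjusted or unadjusted p under 0.05, the highest member of each subfamily and the listed complexes, with neighbours, *Kcna5*, *Kcnk6* and members of wide intervals named after their values were seen. Members and lists were chosen with earlier results of these data known. Counts and sums cover all 72 members, of which 3 are not reported here singly.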

Additional observations from a re-analysis of the deposited data

How the results depend on the processing

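The 11 members with an unadjusted p under 0.05 kept the sign of their difference in all 165 alternative values. Of these values, 11 lost an adjusted p under 0.05. The 11 members were picked by their p in these same data, so a stable sign was favoured in advance. Without the mean-variance trend, limma called 0 of all genes (0 higher, 0 lower) and 0 members, and 7 members (4 lower) had an unadjusted p under 0.05. With the forebrain excitatory covariate it called 4 genes (2 higher, 2 lower) and 0 members, and 5 members (2 lower) had an unadjusted p under 0.05. With the replicate number as a block it called 35 genes (5 lower) and 2 members (0 lower, since *Kcng1* had an adjusted p of 0.0724), and 4 members were lower at an unadjusted p under 0.05. The labels do not say whether the numbers pair the libraries. The deviations of same-numbered libraries from their group means correlated at -0.02, -0.12 and -0.08. With means of only 3 libraries, these values cannot decide it.

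Leaving out single libraries gave 20 to 66 genes called (19 to 43 higher, 1 to 30 lower), 2 to 3 members called (2 to 2 higher, 0 to 1 lower) and 7 to 13 members at an unadjusted p under 0.05 (3 to 8 higher, 3 to 9 lower). The 66 came without E2 replicate 3 and the 20 without E2 replicate 2. Partner genes called were 0 under every setting. Over all 72 members, 32 kept the sign of their difference in every alternative and 40 had the other sign in at least 1, so the signs of small differences are not settled. The smallest levels, under 2 log2 CPM, rest on few reads. The causes were not tested.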
